A study of Mus musculus with 33 samples.

Results

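The liver regrows after surgical removal of most of its mass, and in mice the DNA synthesis of hepatocytes peaks within the first days. The step described here sets 3 livers collected 3 days (3 d) after a 70% partial hepatectomy against 3 livers collected 2 days (2 d) after the same operation, 6 of the 33 arrays of a time course with 3 livers at each of 11 times. All 6 livers had the same operation, so the comparison is between later and earlier regrowth and holds no unoperated liver. The 0 d livers of the series and the other times are used below only to place levels. Strain, sex and age of the mice are not given in the labels used here. Total RNA was read on Affymetrix mouse genome arrays, and all levels below are deposited log2 values after robust multi-array averaging (RMA), with 1 probe set per gene. A difference of 1 on this scale is a doubling or halving, differences are given as 3 d minus 2 d, and values of about 5 or less are near the lowest signal that the arrays resolve, called the floor here. With 3 arrays a time, their number limits the precision.

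The tissue label was checked first. The description field names fat-derived cells, with different wording at 3 d and at 2 d, whereas the tissue and source fields give liver. Albumin (Alb) lay at 14.76, 14.80 and 14.80 at 3 d, against 14.73, 14.75 and 14.77 at 2 d, among the highest values on the arrays. The adipocyte hormone Adipoq lay at 2.97, 2.97 and 3.22 at 3 d, against 2.94, 2.89 and 5.86 at 2 d. The third 2 d liver thus carried more adipocyte signal than the other 5, and the mean over 12 adipocyte genes was 7.07 on that array, against 5.88 to 6.19 on the others. Its part in the results was not tested.

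The second 2 d liver stood apart from the other 2 d livers. After each gene was centred, its mean correlation with the other 2 d arrays was 0.451, against 0.658 and 0.580 for the other 2 d arrays and 0.803 to 0.811 for the 3 d arrays. All 51 of the 51 tested genes of the list "kinetochore, spindle and chromosome condensation" were lower on this array than on both other 2 d arrays. Their mean level was 6.19 there, against 7.76 and 8.05 in the other 2 d livers, 7.37, 7.34 and 7.12 in the 3 d livers, and a mean of 6.24 at 1.5 d. The other 2 d livers were above all 3 d livers on this measure, and the second was below all of them. Results that lose their call without this array are therefore given with and without it, and of the 32 named genes 11 did so. More lost their call without most of the other arrays: 31 without 2 d replicate 1, and 32, 32 and 30 without 3 d replicates 1, 2 and 3. Without 2 d replicate 3, 1 did. Those losses are not given gene by gene, so a gene without such a remark is not stable to leaving out a liver. Leaving out the second 2 d liver lowers the differences of genes that were low on it, so falls of cell cycle lists in that fit are no separate support. The third 2 d liver had a mean correlation of 0.751 with the 3 d arrays, above its 0.580 with the other 2 d arrays. It was the highest 2 d array for 24 of the 28 genes called higher at 3 d (85.7%), against 36.2% of all genes tested. Without it 135 genes were higher and 88 lower at 3 d, 55 of the 57 among them.

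Between these times few genes passed the test in either direction. Of 13642 genes tested with limma over all 33 arrays, 57 (0.418%) differed at an adjusted p under 0.05, with 28 (0.205%) higher and 29 (0.213%) lower at 3 d. Of these, 11 of the higher genes (0.0806% of all tested) and 2 of the lower genes (0.0147%) differed at least 2-fold. Of all 13642 genes, 7029 had a positive and 6607 a negative difference, the background for the counts of direction below. The 3 d mean was above the 0 d mean in 6248 of the 13642, the background for counts against 0 d. The genes that fell included parts of the replication and repair machinery, and those that rose included macrophage and antigen presentation genes. The calls rest on few livers. Without 3 d replicate 1 or without 3 d replicate 2, 0 genes passed in limma, although 1438 and 1224 genes kept an unadjusted p under 0.05, against 1581 with all arrays. Every one of the 57 genes kept its direction in each of these fits. This was fixed in advance for genes whose arrays do not overlap, which is all of them but Gstp3, so it adds no support. Several genes have more than 1 probe set, and when these were averaged 22 of 31 named genes passed and 9 did not.

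**Figure D1:**
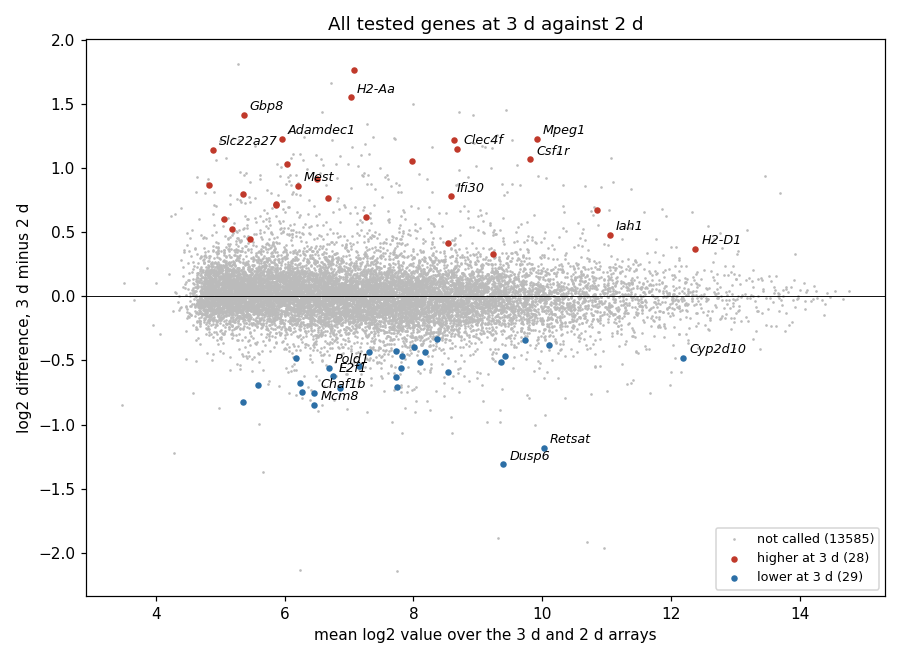
Log2 difference of each of the 13642 tested genes, 3 d minus 2 d (vertical axis), against its mean log2 value over the 6 arrays (horizontal axis). Each point is a gene, red for the 28 called higher at 3 d, blue for the 29 called lower and grey for the rest; called genes lie at low and at high signal, and many uncalled genes differ by as much as the called ones.

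Chromosomal replication begins when the helicase made of MCM proteins is loaded at origins by ORC, CDC6 and CDT1. Polymerases, clamp loaders and nucleotide-making enzymes then copy the DNA, and CAF-1 and related chaperones place histones behind the fork. Transcription of these genes is driven largely by E2F factors, whereas genes needed later, in mitosis, are known for a different promoter element, the cell cycle genes homology region (CHR).

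Several of the genes that fell at 3 d act at or behind the replication fork. Chaf1b, a subunit of the CAF-1 histone chaperone, lay at 6.18, 6.12 and 5.94 at 3 d, against 7.14, 6.69 and 6.67 at 2 d. The groups did not overlap, and Chaf1b fell by 0.75 on the log2 scale (standard error 0.13, adjusted p = 0.0206 in limma). Pold1, the catalytic subunit of DNA polymerase delta, lay at 6.29, 6.50 and 6.43 at 3 d, against 7.00, 7.05 and 6.84 at 2 d, a fall of 0.56 ± 0.10 (SE). Tonsl, which protects newly replicated chromatin and stalled forks, lay at 5.88, 5.88 and 5.93 at 3 d, against 7.00, 6.48 and 6.44 at 2 d. Its 3 d values lay close together, near its 0 d mean of 5.72, and it fell by 0.74. With the mean of its probe sets Chaf1b differed by -0.34 (adjusted p = 0.0823 in limma). Chaf1b, Pold1 and Tonsl thus had lower values in every 3 d liver than in any 2 d liver.

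Hells, a helicase of the SNF2 family needed for DNA methylation, lay at 6.48, 6.71 and 6.32 at 3 d, against 7.58, 7.02 and 7.06 at 2 d (difference -0.72, adjusted p = 0.0304 in limma). Cbx5, the heterochromatin protein HP1 alpha, lay at 7.45, 7.48 and 7.30 at 3 d, against 8.21, 7.81 and 8.09 at 2 d. Both were lower in each of the 3 d livers than in any 2 d liver on the probe sets used. With the probe set that was highest over the 6 arrays, Hells differed by -0.70 (adjusted p = 0.55) and Cbx5 by -0.17 (adjusted p = 0.764). With the mean of the probe sets Hells differed by -0.56 (adjusted p = 0.232) and Cbx5 by -0.29 (adjusted p = 0.0899). E2f1, an activating factor of the E2F family, lay at 6.40, 6.57 and 6.34 at 3 d, against 7.21, 7.18 and 6.80 at 2 d, and fell by 0.62 ± 0.14 (SE, adjusted p = 0.0424). Of 17 tested E2F family and pocket protein genes, 1 fell, against 0.213% of all genes, 0 rose, and 15 had a negative difference. E2f2 differed by -0.85 and E2f8, a repressor, by -0.74, with no overlap between times, but their adjusted p of 0.131 and 0.416 did not pass. Without the second 2 d liver, E2f1 differed by -0.56 at an adjusted p of 0.0798, and with the mean of its probe sets by -0.39 at 0.0843.

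Genes of recombination and crosslink repair were among those that fell. Palb2, which brings BRCA2 to DNA breaks, lay at 5.18, 4.94 and 4.68 at 3 d, against 5.97, 5.67 and 5.63 at 2 d. It fell by 0.82 (adjusted p = 0.0296 in limma), with its 3 d level near the floor of the arrays. Fancb, a member of the Fanconi anaemia core complex, fell by 0.68, and Mcm8, a helicase relative that works in homologous recombination, fell by 0.85. Their 3 d arrays ranged from 5.62 to 6.07 for Fancb and from 5.90 to 6.11 for Mcm8, against 6.34 to 6.82 and 6.53 to 7.09 at 2 d. With the mean of its probe sets Fancb differed by -0.38 (adjusted p = 0.0984 in limma). Among 22 listed genes of DNA repair and checkpoint signalling 0 passed, although 21 had a negative difference and the arrays of 8 (a background of 8.84% of all genes) lay wholly below those of 2 d. The difference was -0.90 for Timeless (adjusted p = 0.0652) and -0.87 for the checkpoint kinase Chek1 (adjusted p = 0.14). Without the second 2 d liver 6 of the 22 fell, among them Chek2 and Brca2, against 1% of all genes in that fit.

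No gene of origin licensing passed the test with all 6 livers. Of 24 tested genes for origin licensing and the helicase, 22 had a negative difference, 11 lay wholly below 2 d, as did 8.84% of all genes, and 0 were called, with a median difference of -0.25 against 0.01 over all genes tested. Mcm5, a subunit of the helicase, lay at 8.98, 8.87 and 8.70 at 3 d, against 10.50, 9.24 and 9.75 at 2 d (difference -0.98, adjusted p = 0.28). Mcm7 lay at 9.68, 9.59 and 9.47 at 3 d, against 10.89, 10.17 and 10.47 at 2 d (difference -0.93, adjusted p = 0.0734). The 2 d livers were above all 3 d livers for both genes and differed widely from one another. The initiation factor Mcm10 differed in the other direction, at 9.80 to 10.25 at 3 d and 9.12 to 9.83 at 2 d (difference 0.58, adjusted p = 0.525). Without the second 2 d liver the median was -0.58, and 4 of the 24 fell (Mcm7, Gins1, Orc6 and Gins2), against 1% of all genes in that fit. That liver was below both other 2 d livers for 17 of the 24, so leaving it out favours such falls.

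Of 31 tested genes of the replication fork and nucleotide supply, 2 fell (Chaf1b and Pold1), against 0.213% of all genes, 0 rose and 30 had a negative difference, with a median of -0.47. The arrays of 13 genes lay wholly below those of 2 d, against 8.84% of all genes. Uhrf1, which guides maintenance methylation, lay at 7.92, 7.55 and 7.25 at 3 d, against 9.04, 7.94 and 8.44 at 2 d (difference -0.90, adjusted p = 0.269). For the clamp Pcna, the 3 d values of 11.17 to 11.32 lay inside the 2 d range of 11.04 to 12.04, and its lowest 2 d value was that of the second liver. Without that liver 14 of the 31 fell, with a median of -0.69, among them Pole2, Pola1, Lig1 and Rrm1, against 1% of all genes in that fit. The mean level of the list was between 7.87 and 8.06 in the 3 d livers, against 8.77, 8.02 and 8.54 in the 2 d livers and 7.05 at 0 d. In 30 of the 31 genes the 3 d mean was still above the 0 d mean, so levels were lower than at 2 d but not back at the starting level.

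To show the promoters of these genes, 250 bases upstream of the annotated start are given from RefSeq (build GRCm38.p6), with E2F letters in capitals for genes of the S phase and CHR letters in capitals for genes of mitosis. Hells was called lower, Mcm5 and Mcm7 had the largest licensing differences shown above, and Cdc20 and Cdk1 are mitotic genes described next. These genes and motifs were chosen after the values were seen. The E2F letters searched were TTTCCCGC, TTTCGCGC, TTTGCCGC and TTTGGCGC, and the CHR letters were TTTGAA and TTCGAA, on both strands. Capitals mark only the motif named for a gene. The window of Cdk1 also holds the E2F letters TTTCGCGC, and that of Mcm7 the CHR letters TTCGAA, both left in lower case. The capitals therefore do not separate the genes by motif.
Hells: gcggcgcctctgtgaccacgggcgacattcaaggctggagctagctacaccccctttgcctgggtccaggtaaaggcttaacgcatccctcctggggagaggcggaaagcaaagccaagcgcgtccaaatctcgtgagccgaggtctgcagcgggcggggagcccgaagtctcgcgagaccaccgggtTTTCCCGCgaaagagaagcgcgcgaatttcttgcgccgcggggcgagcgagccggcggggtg
Mcm5: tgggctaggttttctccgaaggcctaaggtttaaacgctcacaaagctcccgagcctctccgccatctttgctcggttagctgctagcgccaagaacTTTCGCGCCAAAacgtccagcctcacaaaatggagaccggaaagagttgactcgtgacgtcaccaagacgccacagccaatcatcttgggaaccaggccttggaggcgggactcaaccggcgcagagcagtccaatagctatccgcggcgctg
Mcm7: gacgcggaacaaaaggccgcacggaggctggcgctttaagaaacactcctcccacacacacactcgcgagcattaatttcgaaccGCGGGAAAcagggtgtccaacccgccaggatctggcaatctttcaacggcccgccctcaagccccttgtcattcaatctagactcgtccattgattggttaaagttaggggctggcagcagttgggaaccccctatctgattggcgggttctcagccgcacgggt
Cdc20: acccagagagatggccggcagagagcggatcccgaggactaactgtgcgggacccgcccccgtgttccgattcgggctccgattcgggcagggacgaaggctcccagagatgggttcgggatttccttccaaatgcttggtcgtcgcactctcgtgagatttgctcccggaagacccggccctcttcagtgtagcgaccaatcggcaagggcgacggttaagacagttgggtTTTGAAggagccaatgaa
Cdk1: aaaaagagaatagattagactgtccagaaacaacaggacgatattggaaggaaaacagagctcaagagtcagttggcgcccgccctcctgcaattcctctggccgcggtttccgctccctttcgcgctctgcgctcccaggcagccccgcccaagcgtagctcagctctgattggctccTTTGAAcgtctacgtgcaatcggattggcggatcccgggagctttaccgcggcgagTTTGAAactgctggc

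The window of Hells is chr19:38930740-38930989 on the plus strand, with its match starting 62 bases before the start. Mcm5 (chr8:75109259-75109508, plus strand) has a pair of overlapping matches, TTTCGCGC and GCGCCAAA, which start 153 and 149 bases before it. The match of Mcm7 (chr5:138171884-138172133, minus strand) starts 165 bases before it. Cdc20 (chr4:118437344-118437593, minus strand) has its CHR letters 18 bases before the start, and Cdk1 (chr10:69352913-69353162, minus strand) has them at 71 and 15 bases. In the 300 bases from 250 before to 50 after the start, E2F letters were found for 4 of 26 called lower genes with a promoter entry (15.4%), for 9 of 19 licensing genes (47.4%), for 6 of 43 kinetochore and spindle genes (14.0%) and for 4.31% of all 10916 tested genes with an entry. The 4 called genes were Hells, Pold1, Mcm8 and Retsat, the last an enzyme of retinol metabolism. CHR letters were found for 29 of 43 kinetochore and spindle genes (67.4%), for 6 of 19 licensing genes (31.6%), for 1 of the 26 called lower genes and for 16.7% of all. A match describes letters and not binding.

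No listed mitotic gene passed in the comparison of all 6 livers. Of 22 tested mitotic cyclins, CDK1 and APC regulators, 51 genes of the kinetochore, spindle and chromosome condensation and 17 of cytokinesis, 0 passed in limma in either direction, with median differences of -0.0005, -0.06 and 0.11. Cdk1, the kinase that starts mitosis, lay at 10.06, 10.18 and 9.84 at 3 d, against 10.46, 8.23 and 11.16 at 2 d. Ccnb2, its cyclin partner, lay at 9.78, 9.49 and 9.63 at 3 d, against 8.56, 5.53 and 10.58 at 2 d (difference 1.41, adjusted p = 0.359). Cdc20, an activator of the anaphase-promoting complex, lay at 7.15, 7.25 and 7.44 at 3 d, against 7.46, 6.62 and 7.68 at 2 d. The 3 d values sat close together inside a wide 2 d range, and the lowest of each gene's 2 d values came from the second liver.

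The second 2 d liver was set apart partly because kinetochore genes were low on it, so lower differences of such genes without it were fixed in advance. Without the second 2 d liver, the medians of these lists became -0.47, -0.60 and -0.56, and 2, 16 and 5 members fell, against 1% of all genes in that fit. They included Aurkb, the kinase of the chromosomal passenger complex (-1.33, adjusted p = 0.00648 in limma), the kinetochore gene Cenph (-1.22), the condensin subunit Ncaph (-1.03) and Cdk1 (-0.78, adjusted p = 0.0416). Ccnb2 differed by 0.06 in that fit. Without the third 2 d liver in place of the second, the medians were 0.18 for the mitotic cyclin list and 0.25 for the kinetochore list. In that fit 2 genes of the cyclin list were called higher, against 0.99% of all genes, and 1 of the kinetochore list lower, against 0.645%. Without the first 2 d liver these medians were 0.09 and 0.07, and 0 members of either list were called, against 2 of all 13642 genes. Without the second liver 158 genes were called, 137 lower and 21 higher, and 31 of them were among the 57. In 49 of the 51 kinetochore and spindle genes the 3 d mean exceeded the 0 d mean, with a median excess of 1.90, and the next sampled time, 4 d, was lower by a median of 1.25.

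**Figure D2:**
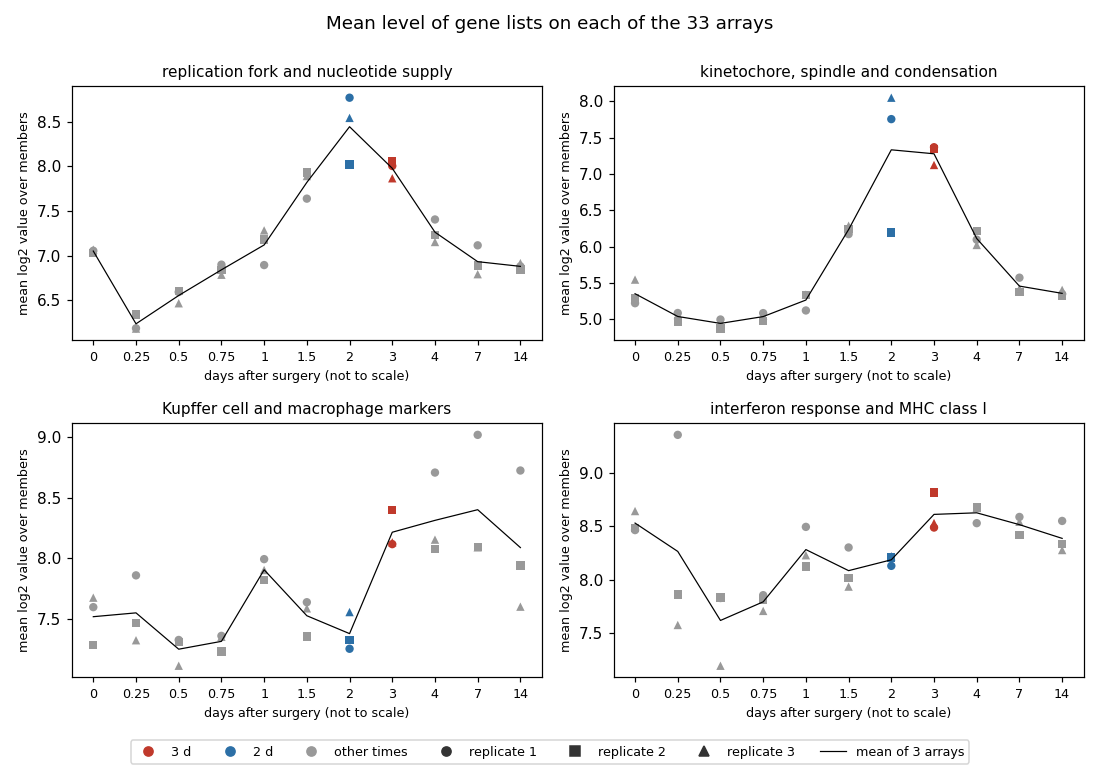
Mean log2 value over the members of 4 gene lists (vertical axes) on each of the 33 arrays, by days after surgery (horizontal axes, not to scale). Red points are 3 d, blue points 2 d and grey points other times, symbols mark replicates and lines join the means of 3 arrays; for the kinetochore list the second 2 d array lies at 6.19, near the 1.5 d arrays, while the other 2 d arrays lie above all 3 d arrays.

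Other growth genes were lower in part. Lyar, a nucleolar protein, fell by 0.56 (adjusted p = 0.0296 in limma), at 7.66, 7.55 and 7.36 at 3 d against 8.17, 8.08 and 7.98 at 2 d. Lsm8, a subunit of the ring that binds U6 spliceosomal RNA, fell by 0.59. Caprin2, an RNA-binding protein, fell by 0.69. Of 37 genes of ribosome biogenesis and translation, 34 had a negative difference (median -0.22) and 12 lay wholly below 2 d, against 8.84% of all genes, but 0 passed in limma. The nucleolar gene Nop58 lay at 8.55, 8.52 and 8.55 at 3 d, against 9.32, 9.20 and 9.07 at 2 d (difference -0.66, adjusted p = 0.26). Further genes called lower, outside the naming rule and named after their values were seen, were Sf3a1, Rbm8a, Ddx39b and Tnpo3, which act in RNA splicing, the exon junction complex, mRNA export and nuclear import. Each of these fell by between 0.33 and 0.47 on the log2 scale.

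Dusp6, the phosphatase that switches off ERK kinases and is itself induced by their activity, had the largest fall among the named genes. It lay at 8.85, 8.68 and 8.70 at 3 d, against 10.19, 10.37 and 9.61 at 2 d, and was 0.403 times the 2 d level (log2 difference -1.31 ± 0.28, SE, adjusted p = 0.0347 in limma). It differed by -1.15 and did not pass without the second 2 d liver (adjusted p = 0.0719). Its 3 d mean of 8.74 was below the 0 d mean of 8.92, and the 4 d mean was 9.45. Of 19 immediate early genes, which are switched on within minutes of a growth signal, 0 passed. Egr1 lay at 10.29, 10.01 and 8.92 at 3 d, against 11.88, 12.34 and 10.75 at 2 d (difference -1.92, adjusted p = 0.269), and Ier2 at 8.05, 8.08 and 8.07 at 3 d, against 9.15, 9.63 and 8.61 at 2 d (difference -1.07, adjusted p = 0.0696). The arrays of both genes did not overlap between times, and at 2 d their spread was wide.

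**Figure D3:**
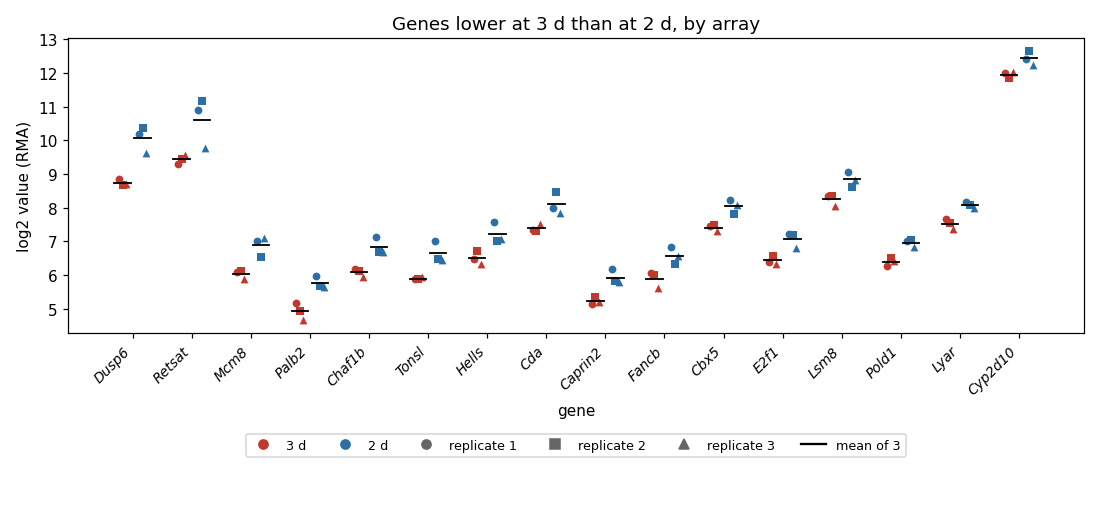
Log2 values of the 16 named genes that were lower at 3 d, by array. For each gene the red points on the left are the 3 livers of 3 d and the blue points on the right those of 2 d, symbols mark replicates and bars the mean of 3; no red point of a gene reaches any of its blue points.

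Of the 29 genes called lower, 20 had their highest mean of the 11 times at 2 d, a placement that the direction of the call favours. Against a background of 6248 of all 13642 genes, 18 of the 29 still had a 3 d mean above the 0 d mean. The median of the 3 d mean over the 0 d mean was 0.08 for these genes, and that of the 2 d mean over the 0 d mean was 0.71. For Chaf1b the mean was 6.08 at 3 d, against 6.83 at 2 d, and it had been 5.15 at 0 d. For Fancb it was 5.90 at 3 d, against 6.58 at 2 d, and it had been 4.21 at 0 d.

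The livers of 3 d had higher levels of macrophage genes. Kupffer cells are the resident macrophages of the liver sinusoids, clear particles and old red cells from portal blood, and depend on the receptor CSF1R. Clec4f, a lectin specific to Kupffer cells in mice, lay at 9.24, 9.42 and 9.09 at 3 d, against 7.90, 8.12 and 8.28 at 2 d. The lowest 3 d liver was above the highest 2 d liver, and Clec4f was 2.22 times as high (log2 difference 1.15 ± 0.23, SE, adjusted p = 0.0239 in limma). Csf1r lay at 10.28, 10.51 and 10.24 at 3 d, against 8.89, 9.38 and 9.55 at 2 d, and rose by 1.07 (adjusted p = 0.047). Mpeg1, a pore-forming protein of phagocytes, lay at 10.47, 10.68 and 10.44 at 3 d, against 9.25, 8.91 and 9.75 at 2 d, and rose by 1.23. Mpeg1 differed by 1.03 without the second 2 d liver (adjusted p = 0.0964), and with the mean of its probe sets Csf1r differed by 0.93 (adjusted p = 0.0611). In whole tissue, more cells of a type and more RNA per cell cannot be told apart.

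Of 28 tested Kupffer cell and macrophage markers, 3 rose and 0 fell, against 0.205% of all genes that rose. The median difference was 0.95, 27 members had a positive difference, and the arrays of 24 lay wholly above those of 2 d, as did those of 9.87% of all genes. Adgre1, an adhesion receptor used to mark mouse macrophages, lay at 7.76, 8.22 and 7.99 at 3 d, against 6.64, 6.77 and 6.83 at 2 d (difference 1.24, adjusted p = 0.0619). The complement component C1qa lay at 8.96, 9.35 and 9.07 at 3 d, against 8.05, 8.25 and 8.46 at 2 d (difference 0.87, adjusted p = 0.149). Both showed the same separation of the times without passing. Timd4, Vsig4, Cd5l and Lyz2 had differences of 1.08, 1.17, 1.08 and 1.44 and adjusted p of 0.12, 0.0854, 0.201 and 0.098. Lgals3, Clec7a and Cybb, known from activated or recruited phagocytes as well, differed by 0.83, 0.94 and 0.96 with adjusted p of 0.219, 0.0708 and 0.0986. The smallest differences of the list were those of Trem2, Cx3cr1 and Itgax, at -0.06, 0.05 and 0.07.

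The mean over these markers was 8.12, 8.40 and 8.13 in the 3 d livers, against 7.25, 7.32 and 7.56 in the 2 d livers, and it was 7.52 at 0 d, 8.31 at 4 d and 8.40 at 7 d. The 3 d level was above the 0 d level in 28 of the 28 genes, against 6248 of all 13642 genes. The later times stayed near the 3 d level. Without the second 2 d liver the median was 0.91, and Clec4f and Csf1r passed, against 0.154% of all genes higher in that fit. Without the third it was 1.03, and 7 of the 28 passed, against 0.99% of all genes. Without the first 2 d liver, or without any single 3 d liver, 0 of the 28 passed, with medians of 0.83 to 0.99. In those fits 0 to 0.022% of all genes were called higher. With array weights 20 of the 28 passed, but 3.89% of all genes were called higher in that fit.

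Other called genes are known from phagocytes or immune cells. Ly86, the partner of the CD180 receptor, rose by 1.06, and its values were 8.44, 8.65 and 8.44 at 3 d against 7.40, 7.35 and 7.62 at 2 d. Its difference was 1.00 without the second 2 d liver (adjusted p = 0.0614 in limma). Ifi30, a lysosomal thiol reductase used in antigen processing, rose by 0.78, at 8.93, 9.06 and 8.92 at 3 d against 8.06, 8.06 and 8.45 at 2 d. Adamdec1, a secreted metalloprotease of macrophages and dendritic cells, rose by 1.23 (adjusted p = 0.0206 in limma), and its 2 d values of 5.14 to 5.60 lay near the floor. Ccl24, a chemokine that attracts eosinophils, rose by 0.77. It was the only 1 of 20 tested chemokines to pass, against 0.205% of all genes called higher. Bank1, a scaffold of B cell receptor signalling, rose by 1.03, at 6.34 to 6.83 at 3 d against 5.23 to 5.87 at 2 d, but without the second 2 d liver its adjusted p was 0.0914. The B cell genes Cd79b and Jchain and the T and NK cell genes did not pass, with 0 of 17 tested markers called and a median of 0.16. Of these 17, 15 had a positive difference, and the arrays of 6 lay wholly above those of 2 d, against 9.87% of all genes. Ptprc, the CD45 antigen of all leukocytes, had the largest difference of that list at 1.34 (adjusted p = 0.0652).

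H2-Aa, a chain of the class II molecule that presents peptides to helper T cells, had the largest rise among the named genes on the probe set used. It lay at 7.47, 8.28 and 7.68 at 3 d, against 5.76, 6.16 and 6.84 at 2 d, and was 2.93 times as high (log2 difference 1.55 ± 0.34, SE, adjusted p = 0.042 in limma). Its 3 d mean of 7.81 was still below the 0 d mean of 9.56. Of 13 tested class II and dendritic cell genes, H2-Aa alone passed, against 0.205% of all genes called higher. Its partners H2-Ab1, H2-Eb1 and Cd74 differed by 1.03, 0.71 and 0.96 with adjusted p of 0.161, 0.163 and 0.0793, and their arrays did not overlap between times. H2-Aa differed by 1.51 without the second 2 d liver, at an adjusted p of 0.058. Its size depends on the probe set: the other H2-Aa probe sets differed by 0.70, 0.90 and 0.42, the last below the floor filter, and their mean with the first gave 0.89 at an adjusted p of 0.156.

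Among 29 genes of the interferon response and MHC class I, H2-D1 alone passed, against 0.205% of all genes called higher. Of the 29, 28 had a positive difference (median 0.40), as did 7029 of all 13642 genes. The arrays of 18 lay wholly above those of 2 d, against 9.87% of all genes. H2-D1, which encodes a class I heavy chain, lay at 12.57, 12.52 and 12.59 at 3 d, against 12.21, 12.16 and 12.21 at 2 d. The rise of 0.37 was small, but the values of each time lay close together. Gbp8, an interferon-induced GTPase outside that list, lay at 6.15, 6.28 and 5.78 at 3 d, against 4.17, 4.73 and 5.06 at 2 d, and rose by 1.42, a size that depends on 2 d signals near or below the floor. Gbp2, Gbp3 and Igtp of the list differed by 1.24, 1.10 and 1.02 with adjusted p of 0.144, 0.249 and 0.498. Igtp lay at 9.59, 10.89 and 9.91 at 3 d, and the second 3 d liver was also the highest 3 d liver for H2-Aa and Cxcl9.

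**Figure D4:**
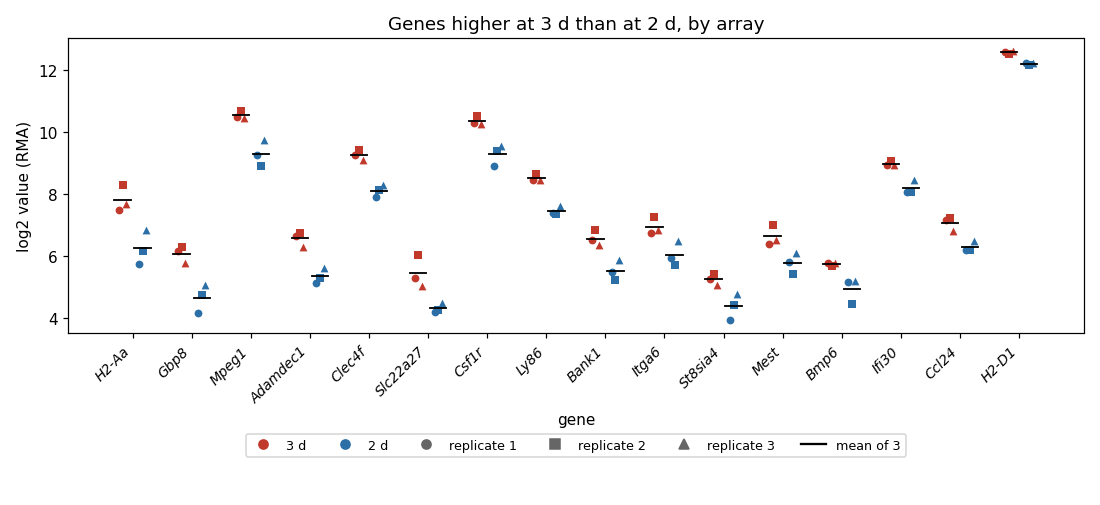
Log2 values of the 16 named genes that were higher at 3 d, by array. For each gene the red points on the left are the 3 livers of 3 d and the blue points on the right those of 2 d, symbols mark replicates and bars the mean of 3; each red point lies above all blue points of its gene, and the third 2 d liver is the highest blue point for 15 of the 16.

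Markers of other non-parenchymal cells did not pass. Of 27 tested sinusoidal endothelial markers 0 were called in limma, and the median difference was 0.09. The arrays of 9 of them lay wholly above those of 2 d and those of 1 wholly below, against 9.87% and 8.84% of all genes. The endothelial cadherin Cdh5 lay at 7.40, 7.39 and 7.22 at 3 d, against 6.83, 6.91 and 7.00 at 2 d (difference 0.42, adjusted p = 0.286), whereas Plvap, a protein of endothelial diaphragms, differed by -0.42 (adjusted p = 0.248). Of 45 stellate cell and matrix genes 0 passed, with differences between -0.27 and 0.46, and 3 lay wholly above and 2 wholly below 2 d. The collagen gene Col3a1 lay at 10.51, 9.76 and 10.04 at 3 d, against 9.49, 9.33 and 10.22 at 2 d, with overlap. In 16 neutrophil and monocyte markers 0 passed, and 3 lay wholly above 2 d. S100a8 lay at 7.06, 7.64 and 7.21 at 3 d, against 5.70, 6.03 and 5.85 at 2 d (difference 1.44, adjusted p = 0.42). Cholangiocyte, erythroid and platelet lists had 0 called genes and medians between 0.0003 and 0.01. Adipocyte genes had a median of -0.24, with the third 2 d liver high.

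Metabolic genes passed singly rather than as lists. Retsat, which saturates a bond of retinol, lay at 9.30, 9.43 and 9.57 at 3 d, against 10.90, 11.18 and 9.77 at 2 d, and fell by 1.18 (adjusted p = 0.0461 in limma). It differed by -0.90 without the second 2 d liver (adjusted p = 0.132), and with the mean of its probe sets by -1.17 (adjusted p = 0.0576). The third 2 d liver lay closest to the 3 d livers. The 3 d mean of Retsat, 9.43, was the lowest of the time course, against 10.71 at 0 d. Cyp2d10, a cytochrome P450 of drug metabolism, lay between 11.84 and 12.01 at 3 d, against 12.40, 12.64 and 12.25 at 2 d, and fell by 0.48. It was the 1 of 41 tested cytochrome P450 and phase II enzymes to pass, against 0.213% of all genes called lower. A cytochrome P450 outside that list, Cyp4f13, named after its values were seen, also fell, by 0.51 (adjusted p = 0.0328 in limma). Cyp4f13 lay at 7.86, 7.66 and 7.99 at 3 d, against 8.29, 8.61 and 8.15 at 2 d. The list median was 0.01, and without the second 2 d liver the adjusted p of Cyp2d10 in limma was 0.0561. Cda, which deaminates cytidine, fell by 0.70, and differed by -0.53 without the second 2 d liver (adjusted p = 0.142).

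Single genes of transport and detoxification rose. Slc22a27, a transporter of the organic anion family, lay at 5.29, 6.04 and 5.05 at 3 d, against 4.21, 4.25 and 4.49 at 2 d, and rose by 1.14. All of its 2 d values were below the floor, so the size of the rise is uncertain. Named after their values were seen, Iah1, an esterase, rose by 0.48, and Gstp3, a glutathione transferase, by 1.22 with overlapping arrays. Iah1 lay at 11.34, 11.21 and 11.31 at 3 d, against 10.73, 10.86 and 10.83 at 2 d. The other Iah1 probe sets differed by -0.07 and 0.40. Gstp3 lay at 8.85, 9.54 and 9.34 at 3 d, against 7.63, 7.52 and 8.91 at 2 d, so the third 2 d liver was inside the 3 d range. Mest, an imprinted gene with an enzyme-like product, lay at 6.39, 7.00 and 6.53 at 3 d, against 5.81, 5.42 and 6.10 at 2 d. Mest was the 1 of 16 oncofetal and imprinted growth genes to pass, against 0.205% of all genes called higher. It differed by 0.68 without the second 2 d liver (adjusted p = 0.0791). St8sia4, a polysialyltransferase, rose by 0.87, a size that is uncertain because all of its 2 d values were below the floor. Bmp6, the signal by which sinusoidal cells raise hepcidin in hepatocytes, lay at 5.76, 5.69 and 5.78 at 3 d, against 5.17, 4.47 and 5.20 at 2 d. It rose by 0.80, or by 0.56 without the second 2 d liver, a size that is uncertain because the 2 d values lay near or below the floor. Itga6, a laminin receptor subunit, rose by 0.91. Itga6 differed by 0.75 without the second 2 d liver (adjusted p = 0.0948) and by 0.64 with the mean of its probe sets (adjusted p = 0.0959).

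The remaining called genes, outside the naming rule and named after their values were seen, had varied functions. Mxd4, a MAX partner that opposes MYC, lay at 7.49, 7.60 and 7.63 at 3 d, against 6.93, 6.89 and 7.05 at 2 d, and rose by 0.62. Gm2a, the lysosomal activator of ganglioside breakdown, lay at 11.08, 11.42 and 11.08 at 3 d, against 10.13, 10.38 and 11.05 at 2 d, so the third 2 d liver nearly reached the 3 d livers. Pld4 and Niban1 rose by 0.71 and 0.72, and Akr1b10, Lrriq3, Zc3h12c, Tmem60 and Yipf4 by between 0.33 and 0.60. The 2 d means of Lrriq3, Akr1b10 and Zc3h12c were 4.75, 4.91 and 5.24, near or below the floor, so these sizes are uncertain. Other probe sets, all below the floor filter, differed by -0.05, 0.08 and 0.25 for Lrriq3, 0.28 and 0.06 for Akr1b10 and 0.13 for Zc3h12c. The other Yipf4 probe sets differed by only 0.0009 and 0.05. BC023105, a clone name, lay at 7.12, 8.77 and 7.96 at 3 d, against 6.29, 6.18 and 6.10 at 2 d. Its difference of 1.76 exceeded those of all other called genes, and its 3 d livers spread over more than 1 log2 unit. Among the lower genes, Cdc123, a factor for assembly of the initiation factor eIF2, lay at 9.55, 9.56 and 9.56 at 3 d, against 9.89, 9.89 and 9.93 at 2 d, a small fall of 0.34 with close replicates. Wrap53, a telomerase and Cajal body protein, fell by 0.48, and Rnf168, a ubiquitin ligase of the response to DNA breaks, by 0.39. Hirip3, Pdap1, 9130401M01Rik, Gstcd and Rexo2 fell by between 0.38 and 0.54. The other Pdap1 probe set differed by -0.16.

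Apart from Cyp2d10, the metabolic lists held no calls. Of 20 tested cholesterol synthesis genes 18 had a negative difference and 0 passed, with a median of -0.38, or -0.18 without the second 2 d liver. Idi1 lay at 11.22, 11.07 and 10.95 at 3 d, against 12.15, 12.02 and 11.05 at 2 d, the third 2 d liver again close to the 3 d livers. Cyp4a14, a fatty acid hydroxylase induced by PPAR-alpha, lay at 9.88, 9.70 and 10.34 at 3 d, against 12.10, 12.91 and 10.79 at 2 d (difference -1.96, adjusted p = 0.124). Cyp7a1, which makes the first step from cholesterol to bile acids, lay at 12.29, 11.09 and 10.64 at 3 d, against 10.50, 11.25 and 9.71 at 2 d, with overlap. Of the 39 tested genes of the urea cycle and amino acid breakdown, Tdo2, which starts tryptophan breakdown, differed by 0.52 (adjusted p = 0.0731) without overlap, and the median was 0.05. Lists of lipogenesis, glucose and glycogen, bile acids and fatty acid oxidation had medians between -0.16 and 0.07 and 0 calls. Of 23 tested pericentral and Wnt genes 19 had a negative difference (median -0.32) and 0 passed.

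Clock genes were a further axis on which the 2 d livers differed. Dbp, an output gene of the circadian clock, lay at 9.78, 10.53 and 10.10 at 3 d, against 8.70, 7.81 and 10.23 at 2 d (difference 1.22, adjusted p = 0.647 in limma). Per3 lay at 6.65, 7.10 and 6.80 at 3 d, against 5.97, 5.75 and 6.90 at 2 d. In both genes the third 2 d liver lay with the 3 d livers and the second was lowest. The part of this difference in the metabolic results was not tested, and hours of collection are not in the labels.

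**Figure D5:**
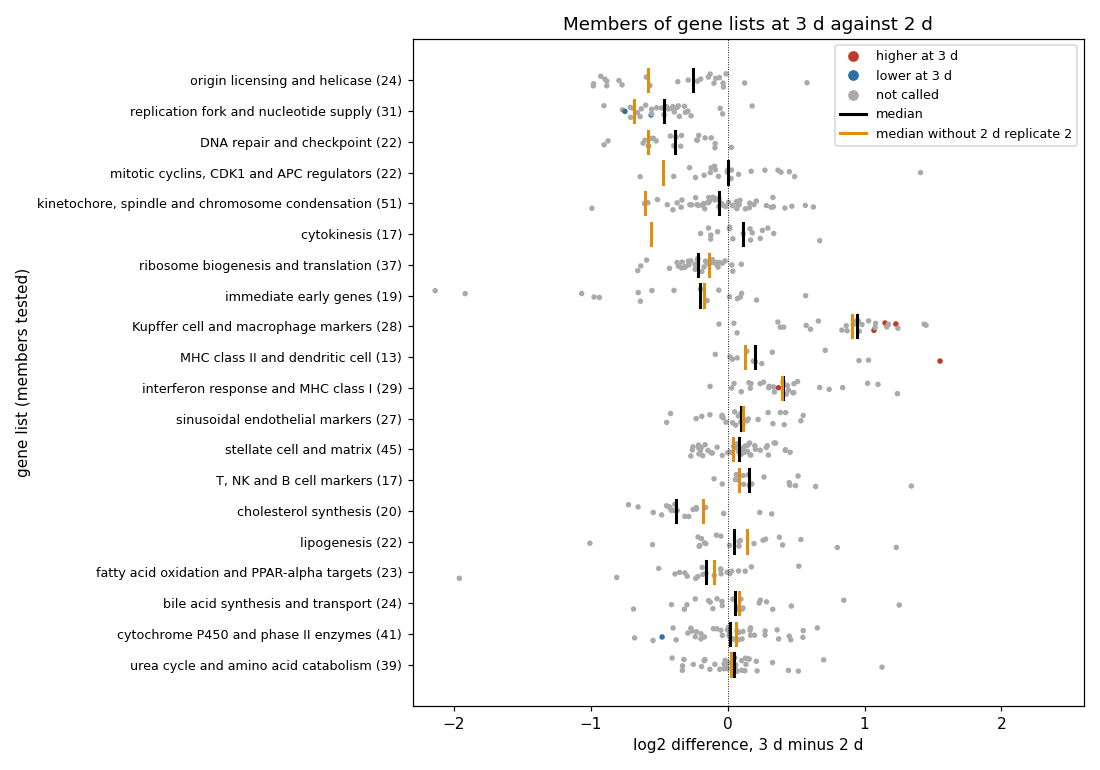
Log2 difference, 3 d minus 2 d (horizontal axis), of each tested member of 20 gene lists (rows, with the number tested). Red points were called higher, blue points lower and grey points neither; black bars are list medians and orange bars medians without the second 2 d array, which lie left of the black bars for the replication and mitotic lists and close to them for the macrophage list.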

How the data were processed

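Livers were compared as 3 arrays of 3 d against 3 arrays of 2 d, taken from 33 arrays of 11 times. Per the labels' protocols, Trizol was used for extraction and 5 µg of RNA was biotin-labelled for Affymetrix mouse arrays. The deposited values are log2 expression values that the authors made with RMA, per the submitters' processing notes, which name no version. RMA subtracts a modelled background, makes the arrays' distributions alike and combines probes, so a shift common to most genes is removed. Array medians lay between 5.32 and 5.36 on the 6 arrays, and no arrays held identical values.

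Of 45101 probe sets, the platform annotation gave 34945 a single symbol, 932 several and 9160 none, and 64 are controls. For each of 18193 genes the probe set with the highest overall mean was kept. The 13642 genes that reached 5 on the log2 scale on 3 or more arrays entered the test. A mean per time was fitted by lmFit and eBayes of limma 3.58.1 (R 4.3.3), which left 22 residual degrees of freedom, the contrast was 3 d minus 2 d, and two-sided p-values were adjusted by Benjamini-Hochberg over all tested genes, with a threshold of 0.05. The labels call the livers biological replicates. The p-values and standard errors rest on a spread per gene that was pooled within times over all arrays of the series. They therefore do not measure the spread among the livers of 3 d and 2 d alone. On simulated data for these arrays, 50.7% of changes of 0.5 on the log2 scale, 88.1% of changes of 1 and 100% of changes of 2 were recovered. Of 169 calls there, 10 were false. The simulated noise was independent between genes, and each gene had the same spread at all times. It held no array that stands apart as the second 2 d array does, so these shares do not carry over to the real comparison.

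Named are the 15 highest and 15 lowest called differences whose arrays did not overlap, without clone names, and up to 5 called members per list and direction. Members, lists, rules and motifs were chosen with earlier results of these data known. The alternatives were another filter or none, another choice of probe set, array weights, quantile normalization, a shift of the arrays to the same median, a robust prior with an intensity trend, a block for the replicate number, the 6 arrays alone and each array left out. The arrays were treated as unpaired. Promoters were matched by Entrez number to RefSeq, and 10916 of 13642 tested genes had an entry.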

Additional observations from a re-analysis of the deposited data

Results flagged for a closer look

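Probe sets without a single gene symbol are not used in the comparison above and were tested by the same fit. Of 4290 that reached the floor, 3 passed at an adjusted p under 0.05 in limma, 2 higher and 1 lower at 3 d, and these carry no gene name here.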

How the results depend on the processing

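The counts of 28 genes higher and 29 lower at 3 d depend on single arrays. Leaving out each array in turn gave 0 to 135 genes higher and 0 to 137 lower. The count was 0 in both directions without 3 d replicate 1 (lowest adjusted p 0.0516 in limma) and without 3 d replicate 2 (0.0696). It was 3 higher and 0 lower without 3 d replicate 3, and 2 higher and 0 lower without 2 d replicate 1, with 1254 and 1223 genes at an unadjusted p under 0.05. It was 21 higher and 137 lower without 2 d replicate 2, and 135 higher and 88 lower without 2 d replicate 3. Array weights gave 531 higher and 581 lower, with weights of 1.14 to 1.56 for 3 d arrays and 2.55, 0.38 and 0.65 for 2 d arrays. With the 6 arrays alone, 38 were higher and 2 lower, 6 of them among the 57, and 28 of the 32 named genes lost their call. Quantile normalization gave 46 higher, and a floor of 7 gave 16 higher. With the replicate number as a block 50 genes were higher and 31 lower, and all 57 were among them, although deviations of same-numbered arrays correlated at only 0.14, -0.01 and 0.003, and 2 of the 6 arrays correlated best with their own number. The causes were not tested. The other planned settings stayed within 1.5 times of both counts. The direction of all 57 genes was kept wherever they were tested, and none of the 32 named genes reversed. With a single array left out this was fixed in advance for genes whose arrays do not overlap, so it adds no support. Of 57 further probe sets of the called genes, 38 passed the floor filter and 36 of these pointed the same way. The 2 opposite ones belonged to Ddx39b (0.11) and Iah1 (-0.07). Direction does not measure size, and those of Yipf4 differed by only 0.0009 and 0.05. Of the 19 below the filter, 5 pointed the opposite way. Signals near the floor limit how small a change can be seen.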
